A study of Danio rerio with 6 samples.

Results

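The macrophage genes described here are 10 genes taken by name: mpeg1.1, mpeg1.2, mfap4, spi1a, spi1b, csf1ra, csf1rb, marco, lcp1 and coro1a. Of these, 8 had a row among the 15419 gene symbols of the count table, and 6 had enough counts to be tested. The samples were guts dissected from wild-type (WT) zebrafish larvae (Danio rerio), for which the series gives an age of 5 days after fertilization without saying whether this was the age at injury or at collection. In 3 libraries (cut_wt) the gut had been cut across the whole organ 24 h earlier, and these are called transected. The other 3 (wt) carry no mention of a cut in their labels and are taken as uncut controls, and both groups share the WT genotype. Each library pooled 10 to 15 guts.

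Macrophages are phagocytes that engulf microbes and dying cells, and in zebrafish they gather at wounds and take part in repair. Their development depends on the transcription factor PU.1, encoded in zebrafish by the duplicated genes spi1a and spi1b, and on the CSF1 receptor at the cell surface, encoded by csf1ra and csf1rb. The mpeg1 genes, which encode perforin-2, a pore-forming protein that attacks engulfed bacteria, and mfap4, a lectin-like secreted protein, are commonly used in zebrafish to mark macrophages. lcp1 and coro1a encode actin-binding proteins found in leukocytes generally, and marco encodes a scavenger receptor for bacteria.

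Library totals ran from 21525093 to 25131242 counts. In each group, replicate 1 differed from replicates 2 and 3 in its summed neutrophil markers, so results are also given without both such libraries. That choice was made from these data, so calls without those libraries are a description. The 14 gut epithelium markers with a row, among them the brush border gene vil1, summed to 18980 to 19760 CPM in transected and 19800 to 21530 CPM in control guts, where CPM is a count scaled to a common library size. Within that list epcam had 5 counts and fabp2 38 counts over all libraries, so a low count in this table was also seen for genes that gut epithelium uses.

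All 6 tested macrophage genes were higher in each transected library than in any control. The separation was widest for mpeg1.2, which was 8.12-fold higher, whereas the other 5 were 1.48-fold to 2.08-fold higher. No member passed an adjusted p of 0.05 over all genes in edgeR's quasi-likelihood test (0 of 6, with 0.0174% of the 11466 genes tested called higher). At an unadjusted p under 0.05 in edgeR all 6 were higher, where 4.32% of tested genes were higher at that level. Wholly separate groups with the transected libraries on top were seen for 7.48% of tested genes. DESeq2, the alternative count test, called 4 members higher (mpeg1.2, spi1a, spi1b and mfap4), where it called 0.864% of genes with an adjusted p higher and 0.597% lower. In the fit blocked on replicate number, edgeR again called 0 members (0.0262% of genes) and DESeq2 called 3 (1.43%). Without both replicate 1 libraries edgeR called 3 members (0.866% of genes) and DESeq2 called 5 (2.47%). The 6 genes had at least 63 counts in every library, so none entered the test through the transected libraries alone. In whole guts, more macrophages, more RNA of these genes per macrophage and RNA from other cells that express some of them cannot be told apart.

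**Figure D1:**
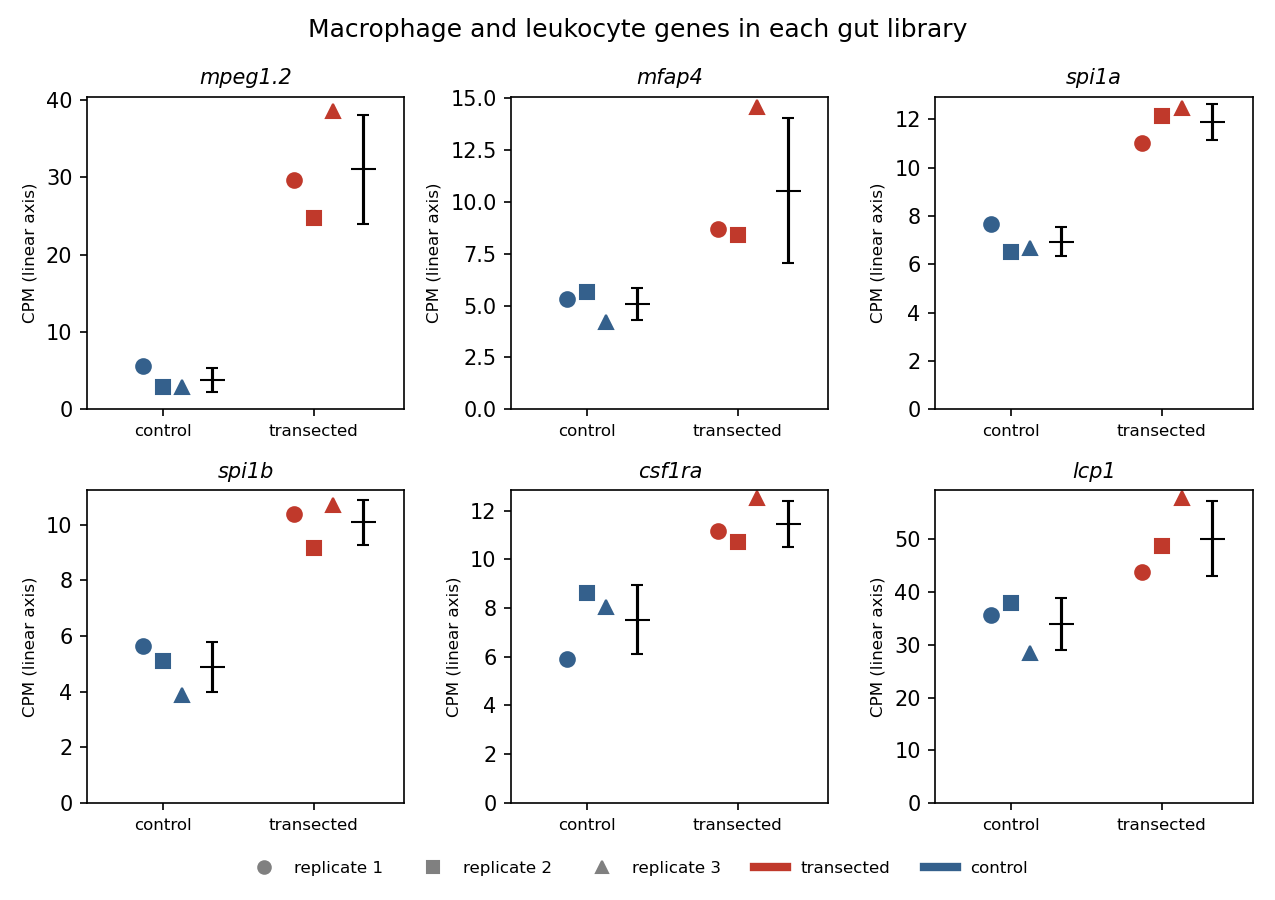
CPM of the 6 tested genes in each library (linear axes from 0), with replicate numbers as symbols, control in blue and transected in red; black bars show mean ± SD of 3 libraries. In each panel the lowest transected library lies above the highest control, with the widest gap for mpeg1.2 (24.8 against 5.62 CPM).

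mpeg1.2 stood at 29.7, 24.8 and 38.6 CPM in transected replicates 1, 2 and 3, from 772, 549 and 896 counts. In the controls it stood at 5.62, 2.93 and 2.85 CPM, from 139, 63 and 63 counts. Control replicate 1 was the highest control and the lowest transected library was replicate 2, and the gap between them exceeded the whole range of the controls. The means were 31.0 ± 7.03 and 3.8 ± 1.58 CPM (SD, n = 3 libraries per group). The log2 fold change was 3.02 (SE 0.33), the gene ranking 4 by p among all genes tested, with an adjusted p of 0.121 in edgeR and 1.3e-16 in DESeq2. Between libraries of the same replicate number the ratio was 5.28, 8.45 and 13.5 for numbers 1, 2 and 3. An exact permutation test over libraries (two-sided) gave 0.1 for mpeg1.2 and for each of the other 5 tested genes, the smallest that 3 against 3 libraries allow. It did not keep the pairing by replicate number, under which an exact sign-flip test could not go below 0.25. Without control replicate 1, its highest control, mpeg1.2 passed in edgeR (log2 fold change 3.42, adjusted p = 0.0280), as 1 of 4 genes called higher. Leaving out any other 1 library, it did not pass (adjusted p from 0.1315 to 0.7128 in edgeR). Without both replicate 1 libraries it passed (3.44, adjusted p = 0.0116), where edgeR called 0.866% of genes higher.

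The other perforin-2 genes had no counts. mpeg1.1, the gene whose promoter drives many zebrafish macrophage reporters, was listed at 0 in all 6 libraries, and so was mpeg1.3, which lies near it. In the RefSeq gene table of the GRCz12tu assembly, which is not the build used by the authors, further genes near mpeg1.1 had counts here. Over the 6 libraries these were 2 for prf1.6, 32 for prf1.5, 106 for mapk4, 1077 for slc20a2 and 8210 for tspan36. The other member without usable counts was coro1a, with 1 count in transected replicate 1 and 1 in control replicate 2. Of the genes around coro1a in the same RefSeq assembly, kmt5c, ppp1caa, paqr4a, prf1.9 and prf1.1 were also listed at 0 and cldni had 5 counts. ppp1caa encodes a catalytic subunit of protein phosphatase 1, an enzyme used by every cell, so the values of coro1a are given only as listed. Those of mpeg1.1 are treated alike, and no level is read from either gene. Of all 15419 rows, 1648 were at 0 in every library. csf1rb and marco were not analysed here.

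mfap4 was 2.08-fold higher, and transected replicate 3 stood well above the other two. It stood at 8.68, 8.39 and 14.6 CPM in transected replicates 1, 2 and 3 and at 5.34, 5.67 and 4.21 CPM in the controls. Replicate 3 held both the highest transected and the lowest control value, so the ratio within equal numbers was 1.63, 1.48 and 3.46. The log2 fold change was 1.05 (SE 0.26, adjusted p = 0.415 in edgeR and 0.0459 in DESeq2), and it was 0.75 without transected replicate 3. Pairing libraries by replicate number ended the DESeq2 call, with an adjusted p of 0.0888 in the blocked fit.

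mfap4 belongs to a cluster of related genes. RefSeq lists 13 genes of this family, and 4 of them were found in the table by symbol or synonym, a search made after the values were seen. The row mfap4 corresponds to RefSeq mfap4.1, zgc:173915 to mfap4.2, zgc:171687 to mfap4.4 and si:ch1073-110a20.3 to mfap4.10. zgc:173915 stood at 9.53, 6.36 and 7.24 CPM in transected guts and at 4.45, 2.23 and 2.35 CPM in controls, with a fitted log2 difference of 1.35 (SE 0.32, adjusted p = 0.412 in edgeR and 0.0176 in DESeq2). Its groups did not overlap, where 7.48% of tested genes were wholly higher, and DESeq2 called 0.864% of genes with an adjusted p higher. Unlike for mfap4, its highest transected library was replicate 1.

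si:ch1073-110a20.3 had 66, 18 and 41 counts in transected and 12, 10 and 11 in control guts, again without overlap (log2 fold change 1.81, SE 0.46, adjusted p = 0.422 in edgeR and 0.0961 in DESeq2). zgc:171687 had 31, 13 and 35 against 17, 9 and 10 counts, and its groups overlapped (log2 fold change 1.06, SE 0.45, adjusted p = 0.635 in edgeR). It passed the filter only through the transected libraries, so its direction and fold change are a description. The 4 rows together made 21.9, 16.2 and 25.1 CPM in transected and 10.96, 8.79 and 7.52 CPM in control guts. Reads shared between such copies could have been divided among rows or dropped, so the split within the family is uncertain. The share of the family's counts that fell on the mfap4 row ran from 39.6% to 58.1% in transected and from 48.7% to 64.6% in control guts.

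**Figure D2:**
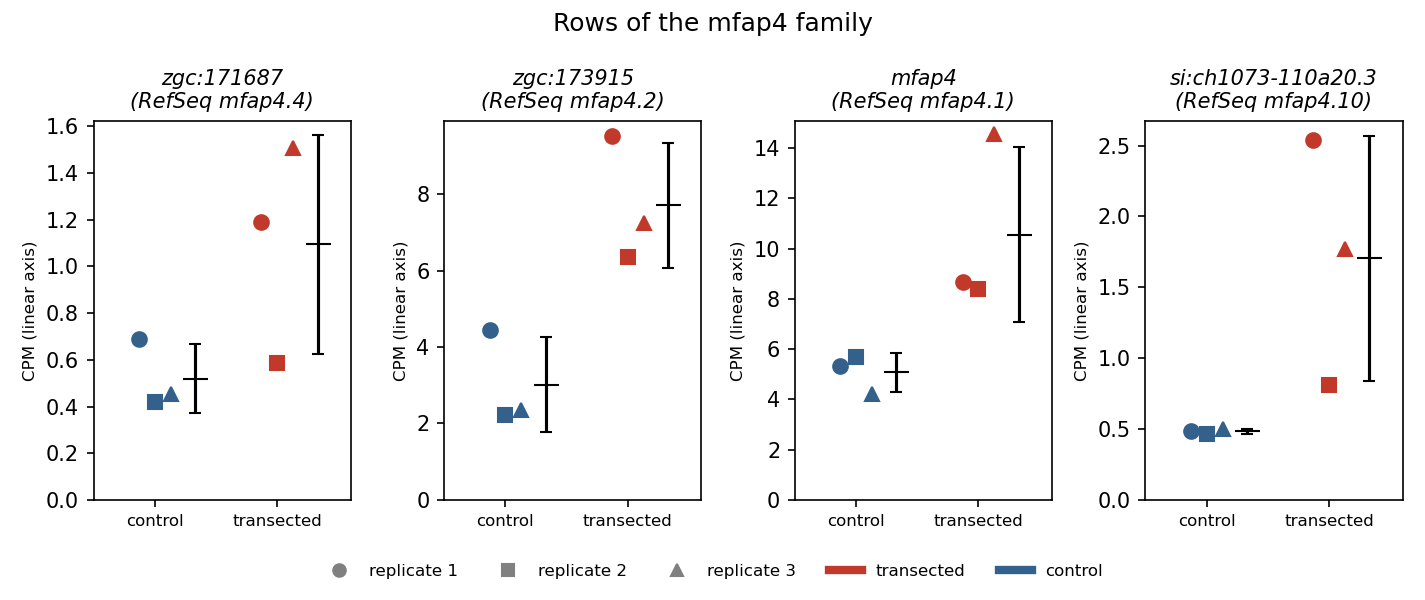
CPM of the 4 rows matched to the mfap4 family in each library (linear axes from 0; symbols are replicate numbers, blue control, red transected, bars mean ± SD of 3 libraries). Groups are separate for mfap4, zgc:173915 and si:ch1073-110a20.3 (7.48% of all tested genes were wholly higher) and overlap for zgc:171687.

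The PU.1 genes were higher with little spread. spi1a stood at 11.03, 12.1 and 12.5 CPM in transected replicates 1, 2 and 3 and at 7.65, 6.51 and 6.66 CPM in the controls. Its means were 11.9 ± 0.751 and 6.94 ± 0.617 CPM (SD, n = 3 libraries), and its log2 fold change was 0.77 (SE 0.13, adjusted p = 0.261 in edgeR and 0.00299 in DESeq2). The gap between the groups was wider than the range within either of them.

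spi1b stood at 10.4, 9.16 and 10.7 CPM in transected and at 5.62, 5.12 and 3.89 CPM in control guts. The means were 10.1 ± 0.809 and 4.88 ± 0.889 CPM, with a fitted log2 difference of 1.05 (SE 0.18, adjusted p = 0.268 in edgeR and 0.00084 in DESeq2). Without both replicate 1 libraries edgeR called both PU.1 genes higher, spi1a at 0.89 (SE 0.12, adjusted p = 0.0339) and spi1b at 1.13 (SE 0.19, adjusted p = 0.0496). That subset was chosen by neutrophil markers, and neutrophils share PU.1, so these calls are a description. In the same subset edgeR called 0.866% of genes higher.

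The pair was then compared within libraries, since a ratio of 2 genes does not depend on library size. The log2 ratio of spi1a to spi1b was 0.09, 0.40 and 0.22 in transected and 0.44, 0.34 and 0.76 in control replicates 1, 2 and 3. These ranges overlapped. The transected mean minus the control mean was -0.28, which an exact two-sided permutation test did not separate from no difference (p = 0.2, smallest possible 0.1). This was the only pair of paralogs with counts in both copies, so 1 pair was compared in place of 3.

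csf1ra, the receptor gene, was 1.52-fold higher. It stood at 11.14, 10.7 and 12.5 CPM in transected and at 5.91, 8.60 and 8.06 CPM in control replicates 1, 2 and 3. Here control replicate 1 was the lowest library, unlike for mpeg1.2, spi1a and spi1b, where it was the highest control. The log2 fold change was 0.61 (SE 0.18, adjusted p = 0.473 in edgeR and 0.231 in DESeq2), and it was 0.47 without both replicate 1 libraries.

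csf1ra is also active in xanthophores, the yellow pigment cells of zebrafish. The pigment cell list summed to 29.8 to 50.4 CPM in transected and 16.9 to 29.9 CPM in control guts, with 7 of 8 tested members higher and a median log2 fold change of 0.67. None passed in edgeR or DESeq2, and 1 was higher at an unadjusted p under 0.05 in edgeR (4.32% of all tested genes). With the replicate block DESeq2 called tyrp1b (adjusted p = 0.00566), where it called 1.43% of all genes higher. The xanthophore genes gch2 and aox5 were near the detection limit, with 38 against 12 and 45 against 17 counts in the 3 transected and the 3 control libraries. The melanophore gene tyrp1b, for melanin synthesis, stood at 6.74 ± 2.89 against 2.50 ± 1.06 CPM (adjusted p = 0.506 in edgeR), pmela, of the pigment granule, at 6.82 ± 2.72 against 3.36 ± 1.46 CPM, and dct at 1.23 ± 0.403 against 0.615 ± 0.475 CPM. dct stood at 0.36 and 0.32 CPM in control replicates 1 and 3 and passed the filter only through the transected libraries. Its direction, and its place among the 7 and in the median, are therefore a description. The part of pigment cells in the csf1ra difference was not tested.

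The ligands of the CSF1 receptor were low in both groups. il34 stood at 6.88, 5.64 and 5.22 CPM in transected and 3.40, 5.44 and 3.71 CPM in control guts, and the groups overlapped (adjusted p = 0.685 in edgeR). csf1a had 44 and 24 counts in the 3 libraries of each group (adjusted p = 0.768 in edgeR), and csf1b had 93 and 108 (adjusted p = 0.862 in edgeR). None of the 3 ligands passed in edgeR or DESeq2, and none was under an unadjusted p of 0.05 in edgeR, where csf1a had no adjusted p in DESeq2. csf1a, at 0.14 CPM in control replicate 2, passed the filter only through the transected libraries, so its values are a description.

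lcp1, the gene of the actin-bundling protein L-plastin, had the smallest fold difference among the 6. It stood at 43.9, 48.7 and 57.9 CPM in transected and at 35.6, 37.9 and 28.4 CPM in control guts. Transected replicate 1 and control replicate 2 lay nearest to each other, and the ratio within equal numbers was 1.23, 1.29 and 2.04. The log2 fold change was 0.56 (SE 0.15, adjusted p = 0.464 in edgeR and 0.163 in DESeq2).

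Because mpeg1.2 differed so much more than the rest, its ratio to each of the other 5 tested genes was taken within libraries, a comparison chosen after the values were seen. For every 100 lcp1 counts there were 67.6, 50.8 and 66.8 mpeg1.2 counts in replicates 1, 2 and 3 of the transected group, against 15.8, 7.73 and 10.0 in the control group. The log2 ratio of mpeg1.2 to spi1b was 1.51, 1.43 and 1.85 in the transected libraries and 0.00, -0.79 and -0.44 in the controls. For all 5 partner genes the transected and control ratios were wholly separate.

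The mean log2 ratio in transected guts minus that in controls was 2.28 against spi1a, 2.0 against spi1b, 2.04 against mfap4, 2.49 against lcp1 and 2.43 against csf1ra. The 5 ratios share the same mpeg1.2 values and restate its larger fold difference, so they are given as a description with no test. Leaving out any 1 library kept the difference between 1.81 and 2.91 over the 5 ratios. For each partner gene this difference in means was larger than the range of the ratios within either group.

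**Figure D3:**
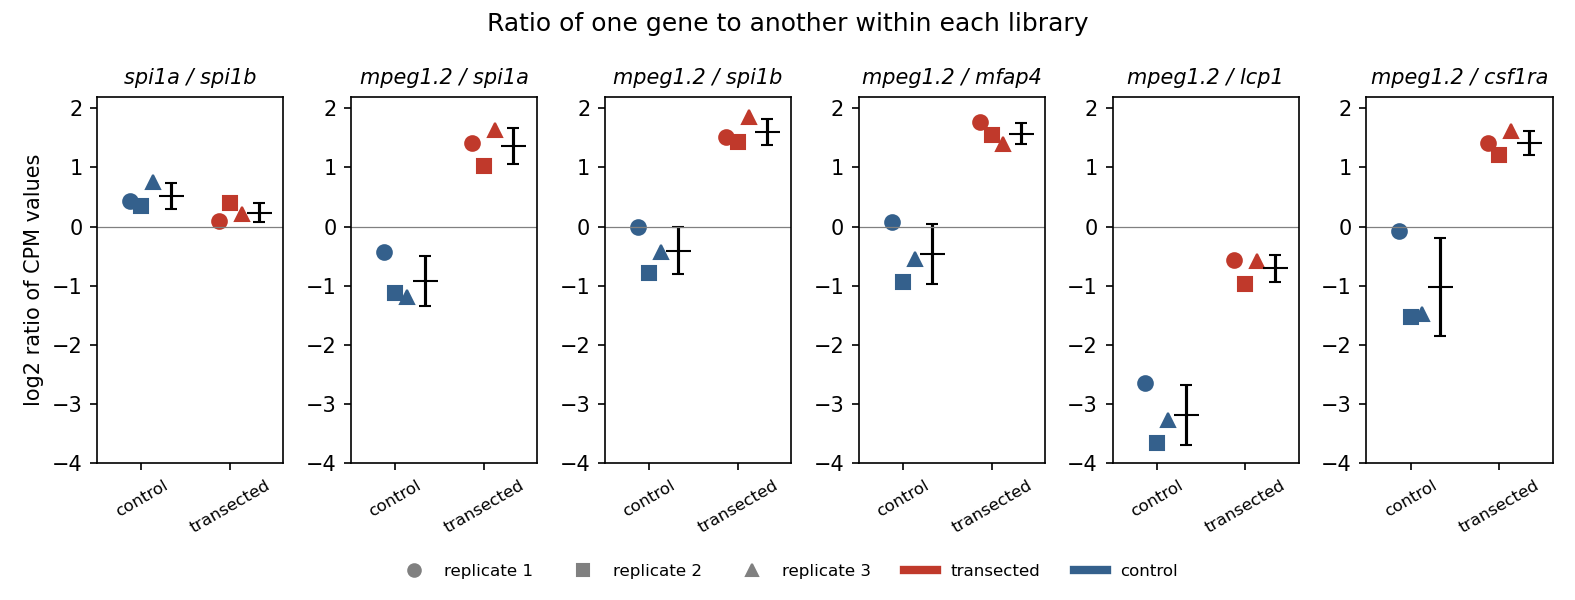
Log2 ratio of CPM values of 2 genes within each library (symbols are replicate numbers, blue control, red transected, bars mean ± SD of 3 libraries). The spi1a to spi1b ratio overlaps between groups, and each mpeg1.2 ratio is wholly higher in transected guts, by 2.0 to 2.49.

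Other genes linked to macrophages were read from lists chosen with earlier results of these data known, and are described by counts. Over all genes tested the median log2 fold change was 0.0026, and 50.5% of genes were higher in transected guts. At an unadjusted p under 0.05 in edgeR 4.32% were higher, and 7.48% were wholly higher. DESeq2 called 0.864% of genes with an adjusted p higher. Of 12 tested genes in the list of other macrophage genes, 11 were higher, with a median log2 fold change of 0.62. In edgeR 0 passed, 6 reached an unadjusted p under 0.05 with higher values, and DESeq2 called 2. fcer1gl, an adaptor of Fc receptors, stood at 9.30, 8.12 and 10.95 CPM in transected and 4.29, 4.19 and 3.08 CPM in control guts (log2 fold change 1.29, SE 0.20, adjusted p = 0.223 in edgeR and 7.43e-05 in DESeq2).

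ctss2.2, a cathepsin S gene of the lysosome, stood at 25.3 ± 4.63 against 14.3 ± 2.1 CPM (adjusted p = 0.387 in edgeR and 0.0200 in DESeq2), and vsir, an immune checkpoint gene, at 13.1 ± 2.24 against 8.12 ± 0.790 CPM (0.413 in edgeR and 0.0834 in DESeq2). These 3 genes did not overlap between the groups, but they were named for the smallest p in their list. Of the 12 tested genes in the list 7 were wholly higher, where 7.48% of all tested genes were. The complement genes c1qa, c1qb and c1qc and the chemokine gene ccl34b.1 were listed at 0 in all libraries, so the list is described by its other genes. Whether those at 0 were unexpressed or uncounted was not tested.

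Of 13 tested transcription factors of myeloid and blood development, 12 were higher, with a median log2 fold change of 0.49. In edgeR and DESeq2 0 passed, and 3 were higher at an unadjusted p under 0.05 in edgeR (4.32% of all tested genes). They were cebpd, a C/EBP factor (390.4 ± 89.4 against 256 ± 14.0 CPM), runx1 of blood stem cells (3.03 ± 0.251 against 2.13 ± 0.263 CPM) and ikzf1 of lymphoid and myeloid progenitors (3.81 ± 0.548 against 2.40 ± 0.702 CPM). Their adjusted p in edgeR was 0.473, 0.629 and 0.629. DESeq2 with the replicate block called cebpd (adjusted p = 0.0488), where it called 1.43% of all genes higher.

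Genes shared by leukocytes at large were divided. Of 14 tested pan-leukocyte genes 10 were higher, with a median log2 fold change of 0.38. In transected guts 7 were wholly higher, where 7.48% of all tested genes were. In edgeR 0 passed and 5 reached an unadjusted p under 0.05 with higher values (4.32% of all tested genes). DESeq2 called 2 higher (0.864% of genes with an adjusted p). arpc1b, a subunit of the actin-branching Arp2/3 complex, stood at 36.2 ± 2.44 against 23.8 ± 1.84 CPM (adjusted p = 0.272 in edgeR and 0.00537 in DESeq2). plek, which encodes pleckstrin, stood at 4.66 ± 0.761 against 1.74 ± 0.441 CPM (0.310 in edgeR and 0.00225 in DESeq2), and the chemokine receptor gene cxcr4b at 6.42 ± 0.432 against 3.62 ± 0.873 CPM (0.422 in edgeR and 0.0984 in DESeq2). Without both replicate 1 libraries 8 of 14 were higher, with a median of 0.12.

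Receptors for scavenging and for uptake of dying cells showed no common direction, with 6 of 13 higher and a median of -0.0026. 0 passed in edgeR or DESeq2, and at an unadjusted p under 0.05 edgeR gave 1 lower and 0 higher (3.55% and 4.32% of all tested genes). The lysosomal membrane gene scarb2a stood at 85.6 ± 9.46 against 110.1 ± 17.0 CPM, the phosphatidylserine receptor gene havcr1 at 5.37 ± 2.01 against 3.38 ± 0.665 CPM and scara5 at 1.26 ± 0.113 against 2.30 ± 1.27 CPM.

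Genes used to tell inflammatory from alternative macrophage states are given side by side, with no test between them. All 7 tested inflammatory genes were higher, with a median log2 fold change of 1.16. In edgeR 0 passed and 4 reached an unadjusted p under 0.05 with higher values (4.32% of all tested genes). DESeq2 called 3 higher (0.864% of genes with an adjusted p). il1b (interleukin-1 beta) had a log2 fold change of 3.23 (SE 0.33), nos2a (inducible nitric oxide synthase) 4.60 (SE 0.61) and irg1l (immune-responsive gene 1 like) 3.87 (SE 0.75), with adjusted p of 0.121, 0.149 and 0.342 in edgeR. nos2a had 208 counts in the 3 transected and 8 in the 3 control libraries, so it entered the test through the transected libraries alone. Its direction, fold change and DESeq2 call are therefore only a description. The related gene tnfb stood at 0.33 and 0.41 CPM in control replicates 2 and 3, and also passed the filter only through the transected libraries. Because nos2a and tnfb are counted among the 7, the shared direction and the median of this list are a description as well. Other gut cells can express the inflammatory genes too. The tumour necrosis factor gene tnfa was below the filter, with 29 and 10 counts in the 3 libraries of each group.

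Of 7 tested genes of the alternative state, 3 were higher, with a median of -0.01. In edgeR and DESeq2 0 passed, and 1 (cxcr4b) was higher at an unadjusted p under 0.05 in edgeR (4.32% of all tested genes). The growth factor gene igf1 stood at 1.29 ± 0.725 against 2.87 ± 1.31 CPM and the lipoxygenase gene alox5a at 2.35 ± 0.511 against 1.87 ± 0.478 CPM. Their groups overlapped.

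**Figure D4:**
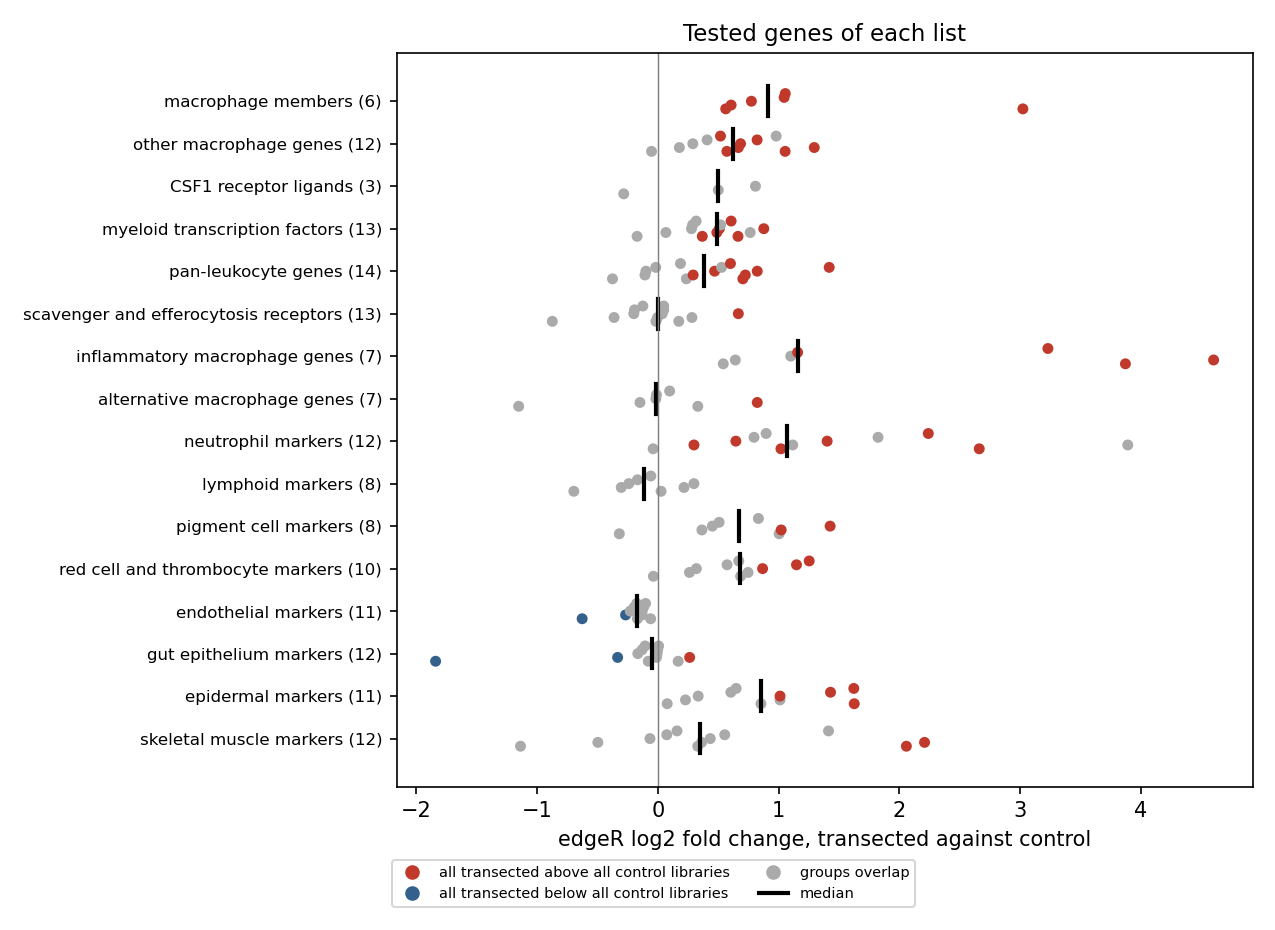
edgeR log2 fold change of each tested gene (points; number tested in brackets) in each list, with the list median as a black bar; colour shows whether the 3 transected libraries lay wholly above (red), wholly below (blue) or across (grey) the 3 controls. The macrophage members are all red (7.48% of all tested genes were wholly higher), with mpeg1.2 alone near 3.02 and a median of 0.91. The inflammatory, neutrophil and epidermal medians lie at 1.16, 1.07 and 0.85, and the endothelial and lymphoid medians at -0.17 and -0.11.

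Neutrophils share PU.1, lcp1 and coro1a with macrophages. Of the 12 tested neutrophil markers 6 were higher in each transected library than in any control, against all 6 of the 6 tested macrophage genes. Over all tested genes 7.48% were. The neutrophil list summed to 197.1, 442.5 and 396.3 CPM in transected replicates 1, 2 and 3 and to 217.6, 68.8 and 72.9 CPM in the controls. mpx, the myeloperoxidase gene that defines neutrophils, stood at 18.1, 249 and 143 CPM against 21.9, 2.56 and 2.99 CPM. Control replicate 1 exceeded transected replicate 1 for mpx, timp2b and lect2l, and transected replicate 1 was the higher of the pair for the other 9 tested neutrophil markers. mmp9, a matrix protease gene, stood at 41.7, 29.7 and 39.7 CPM in transected and 11.5, 6.51 and 5.48 CPM in control guts.

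The neutrophil list had 11 of 12 tested members higher, a median log2 fold change of 1.07 and 0 calls in edgeR. At an unadjusted p under 0.05 in edgeR 7 were higher (4.32% of all tested genes). DESeq2 called 3 higher (0.864% of genes with an adjusted p), or 5 with the replicate block (1.43%). Without both replicate 1 libraries 12 of 12 were higher, with a median of 2.26 and 9 calls in edgeR (0.866% of genes). Those libraries were left out because of this list's own sums, so the larger values are not a separate result. The protease genes mmp9 (37.0 ± 6.43 against 7.83 ± 3.21 CPM), adam8a (14.4 ± 0.580 against 5.43 ± 1.57 CPM) and mmp13a (9.90 ± 2.69 against 1.55 ± 0.899 CPM) had the smallest p in the list, and macrophages can express them too. abcb9 and nccrp1 were listed at 0. The part of neutrophils in the spi1a, spi1b and lcp1 differences was not tested.

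Lymphoid markers were low and did not separate the groups. Their sums were 21.6 to 30.4 CPM in transected and 22.6 to 36.8 CPM in control guts, 3 of 8 tested members were higher, and the median log2 fold change was -0.11. None passed in edgeR or DESeq2, or at an unadjusted p under 0.05 in edgeR. The cytokine receptor genes il2rb (2.23 ± 0.637 against 3.62 ± 1.42 CPM), il2rga (1.71 ± 0.319 against 1.47 ± 0.220 CPM) and il7r (1.42 ± 0.531 against 1.67 ± 0.386 CPM) overlapped between the groups. cd8a and tbx21 were listed at 0.

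Markers of blood, skin and muscle were also higher on balance. Their highest sum was in transected replicate 1 for blood and skin and in control replicate 1 for muscle. Red cell and thrombocyte markers summed to 392.5, 169.4 and 165.5 CPM in transected and 162.6, 167.6 and 112.1 CPM in control guts, with 9 of 10 higher and a median log2 fold change of 0.68. Epidermal markers summed to 5320, 2947 and 3269 CPM against 3299, 2110 and 2322 CPM, with 11 of 11 higher and a median of 0.85. Skeletal muscle markers summed to 5841, 2651 and 4775 CPM against 8263, 813 and 3284 CPM, with 9 of 12 higher and a median of 0.35. Without both replicate 1 libraries the medians were 0.35 for blood (8 of 9 higher), 0.84 for skin (11 of 11) and 1.07 for muscle (10 of 12). The median of the macrophage members was then 1.01, and edgeR called 0, 2 and 2 genes of the blood, skin and muscle lists higher (0.866% of genes). Transected replicate 3 held the highest value of each of the 6 tested macrophage genes. Among the controls replicate 1 was highest for mpeg1.2, spi1a and spi1b, and for the skin and muscle sums. Control replicate 2 was highest for mfap4, csf1ra and lcp1, and for the blood sum. With all 6 libraries 0 members of these 3 lists passed in edgeR, with 3, 4 and 2 higher at an unadjusted p under 0.05 (4.32% of tested genes). DESeq2 called 0, 2 and 0 higher (0.864% of genes with an adjusted p), or 1, 4 and 3 with the replicate block (1.43%). Their part in the macrophage gene differences was not tested.

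The named genes of these lists were the red cell genes slc4a1a (13.3 ± 6.57 against 6.03 ± 1.18 CPM), hbbe1.2 and cahz, the keratin genes krt17 (178 ± 90.0 against 57.6 ± 21.3 CPM) and krtt1c19e with the hemidesmosome collagen gene col17a1a, and the muscle genes mylpfb (37.4 ± 18.3 against 8.05 ± 8.89 CPM), tnni2a.4 and pvalb1. gata1a, krt15 and the muscle gene ckma had 0, 0 and 1 counts over all libraries.

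Endothelial markers were lower on balance, with 0 of 11 tested members higher and a median log2 fold change of -0.17. In edgeR 0 passed and 2 were lower at an unadjusted p under 0.05, where 3.55% of tested genes were. DESeq2 called 1 lower (0.597% of genes with an adjusted p). That gene was kdr, a receptor for vascular endothelial growth factor (16.3 ± 2.02 against 25.2 ± 2.91 CPM, log2 fold change -0.63, adjusted p = 0.412 in edgeR and 0.0350 in DESeq2). kdrl stood at 51.9 ± 6.02 against 62.5 ± 1.99 CPM and fli1a at 22.6 ± 2.25 against 25.6 ± 3.29 CPM.

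Gut epithelium markers had 3 of 12 tested members higher, a median of -0.05 and 0 calls in edgeR. At an unadjusted p under 0.05 edgeR gave 1 lower (3.55% of all tested genes), and DESeq2 called 1 lower (0.597%). That gene was dab2, an endocytic adaptor (66.7 ± 45.6 against 239 ± 82.6 CPM, adjusted p = 0.473 in edgeR and 0.0132 in DESeq2, or 0.133 with the replicate block). The peptide transporter gene slc15a1b stood at 1366 ± 151 against 1721 ± 174 CPM and the cadherin gene cdh1 at 385 ± 23.6 against 321 ± 29.1 CPM.

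The genes whose pattern over the 6 libraries was most like the mean of the 6 tested macrophage genes were found among 9809 other genes with a mean log2 CPM of at least 1. Likeness was Pearson's r over 6 libraries that also share depth and group, and 1.48% of those genes reached 0.9, so it is a description. fcer1gl was first (r = 0.994), then zgc:153932 (0.993), the galectin gene lgals1l1 (0.992), LOC100535095 (0.989) and galnt7, for an enzyme of mucin-type glycosylation (0.985). zgc:153932 stood at 30.9 ± 9.16 against 2.31 ± 1.2 CPM (log2 fold change 3.73, SE 0.44, adjusted p = 0.121 in edgeR). lgals1l1 stood at 22.1 ± 9.63 against 0.799 ± 0.440 CPM (4.76, SE 0.52, adjusted p = 0.121). galnt7 differed little, at 138 ± 3.34 against 117 ± 5.00 CPM. LOC100535095 was the one of the 5 that passed in edgeR (adjusted p = 0.0305), where 0.0174% of genes tested were called higher. DESeq2 called it and also fcer1gl, zgc:153932 and lgals1l1, but not galnt7 (0.864% of genes with an adjusted p were called higher). The mean used for likeness already separates the groups, so genes picked by it differ between groups through the choice. Their p-values and calls are no separate result.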

How the data were processed

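The authors deposited raw counts per gene symbol, 1 column per library. Per the labels, stranded mRNA libraries were read as 100 bp pairs, checked with FastQC 0.11.8 and aligned to danRer11; no source used here names the aligner, counting tool, strand setting or annotation. Columns were matched to samples by library name. The labels call the libraries biological replicates without saying whether the pools came from separate clutches, so p-values measure the spread between these libraries. Members, lists and tests were chosen with earlier results of these data known.

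In edgeR 4.0.16, genes kept by filterByExpr (at least 10 counts, 15 in total) were scaled with TMM and given a quasi-likelihood F test (R 4.3.3; robust, group only, two-sided), with Benjamini-Hochberg adjustment over 11466 genes and a threshold of 0.05. SE is the fold change over the root of F. CPM uses TMM-scaled library sizes; 1 count was worth 0.0384 to 0.0465 CPM, so 0 counts allow up to 0.115 to 0.140 CPM (3 counts, counting error only). Gene ratios used log2 CPM with a prior count of 2. The genes named by rule were the members, up to 3 per list with the smallest p, and 5 by likeness. Other genes named here, among them mpx, were chosen after their values were seen.

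Same-numbered libraries deviated together (Pearson's r 0.450, 0.512 and 0.177 over 11466 genes), against -0.527 to 0.118 for libraries of unlike number. The value for number 3 is close to that range, so this correlation backs its pairing only weakly. The sample titles also hold a second number, which is the same in both groups for replicates 2 and 3 but not for replicate 1. What that second number stands for is not stated. The replicate numbers were taken to pair the libraries in the replicate block, an alternative to the main fit on group only. Libraries within a group differed by 26.4 to 243 in chi-square per degree of freedom, so none is a copy. Alternatives were other scalings and filters, DESeq2 1.42.0, voom in limma 3.58.1, non-robust fitting, the replicate block and left-out libraries. The fits were tested on simulated data. No sequences are shown because none were given.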

Additional observations from a re-analysis of the deposited data

How the results depend on the processing

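All 6 tested macrophage genes kept a positive log2 fold change in all 19 alternatives: 2.84 to 3.44 for mpeg1.2 (called in 5, adjusted p 3.63e-27 to 0.713), 0.73 to 0.89 for spi1a (called in 4, 0.00299 to 0.994), 0.91 to 1.16 for spi1b (called in 4, 0.00084 to 0.969), 0.75 to 1.21 for mfap4 (called in 2, 0.0238 to 0.994), 0.45 to 0.68 for lcp1 (called in 1, 0.0250 to 0.994) and 0.46 to 0.71 for csf1ra (called in 0, 0.154 to 0.994). The calls depended on the tool and on the replicate 1 libraries. Members called higher were 0 in edgeR, 4 in DESeq2, 3 and 5 in edgeR and DESeq2 without both replicate 1 libraries, and 0 to 1 when leaving out 1 library. In the other lists DESeq2 called 12 genes higher and 2 lower, where it called 0.864% and 0.597% of genes with an adjusted p. Without both replicate 1 libraries edgeR called 18 of them higher (0.866% of genes), and DESeq2 called 27 higher (2.47%) and 3 lower. Of the 18, 9 were neutrophil markers, whose own sums had picked that subset, so these counts are a description. When leaving out 1 library 0 to 1 were called higher. In the fits with a replicate block edgeR called 0 members, 3 genes higher and 1 lower, and DESeq2 called 3 members higher (mfap4 was not among them, adjusted p = 0.0888), 22 higher and 1 lower in the other lists, and 164 higher and 124 lower genes in all. The block changed no call on a member in edgeR, and for the paralog difference its sign-flip test cannot go below 0.25. Genes called over all genes were 2 higher and 0 lower in edgeR, 97 and 67 in DESeq2, 0 higher in limma-voom, 99 and 172 in edgeR and 277 and 414 in DESeq2 without both replicate 1 libraries, and 0 higher at an adjusted p under 0.01. Leaving out 1 library gave 0 to 4 higher and 0 to 1 lower genes. The cause of these shifts was not tested. The difference in the spi1a to spi1b log2 ratio lay between -0.36 and -0.15 when leaving out 1 library. Counts of 63 and more per library leave counting error small for the tested genes, while for tnfa, csf1a and the xanthophore genes depth limits what can be seen.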

Other observations

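Which genes had a row followed the kind of RefSeq record. Of 15469 protein-coding genes with a curated transcript in the RefSeq table, 90.1% had a row under their symbol in the data analysed here, against 0.536% of 11570 genes with predicted transcripts alone. csf1rb and marco have predicted transcripts alone in that table, as do the leukocyte gene ptprc and the neutrophil receptor genes cxcr1 and cxcr2, which were not analysed here either.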
